A study of Mus musculus with 5 samples.

Results

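Interferon response genes are the genes that cells switch on when they sense interferon, and 8 of them were followed here in mouse whole blood: Irf7, Ifit1, Ifit3, Isg15, Gbp2, Trim30a, Parp14 and Ifi35. The members were every probe set that the platform annotation assigns to exactly 1 gene symbol, where that symbol is on this list. They came to 12 of the 45101 probe sets on the array and covered 7 of the 8 genes. The only probe set annotated to Isg15 also carries a second symbol, so Isg15 has no value here. Blood was drawn from adult female first-generation mice of a pair of crosses. DBAxFVB F1 mice had a DBA/2J and an FVB/NJ parent (3 arrays), and AKRxFVB F1 mice had an AKR/J and an FVB/NJ parent (2 arrays). Every animal therefore carried 1 FVB/NJ genome, no treatment other than anaesthesia before blood collection is labelled, and the exact age is not given. The question put to these arrays was how basal gene expression in blood depends on the genotype.

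Interferons are secreted proteins that bind receptors on the cell surface. Type I interferons such as interferon beta act through the receptor chains Ifnar1 and Ifnar2 and the kinases Jak1 and Tyk2, which activate a complex that holds Stat2 and Irf9. That complex binds the interferon-stimulated response element (ISRE) in the promoters of its target genes. Interferon gamma acts through Jak1 and Jak2, and promoters of its target genes can hold a shorter gamma-activated site (GAS). In an animal without infection many of these genes are held at a low basal level.

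The ISRE itself can be read in the reference promoters of the members, and stretches with a match are shown because most, though not all, of the listed genes with a window held one. The core was searched on both strands as GAAA followed, after any 2 bases, by a second GAAA, which on the opposite strand reads TTTC, 2 bases and TTTC, in RefSeq windows of 300 bases, from 250 before to 50 after each annotated gene start (build GRCm38.p6). Of the 7 listed genes with a window, 5 held the core: Ifit1, Ifit3, Isg15, Gbp2 and Trim30a. It was present for 3.99% of all 27025 genes with a window, and in 3.44% of all 32851 windows. The measured members with a match upstream of the start read as follows, 5′ to 3′ on the gene's strand, with the matches in capitals.
Ifit1, chr19:34640754-34640843, plus strand: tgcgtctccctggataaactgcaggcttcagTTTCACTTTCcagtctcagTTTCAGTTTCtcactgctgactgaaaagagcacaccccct
Ifit3, chr19:34583350-34583439, plus strand: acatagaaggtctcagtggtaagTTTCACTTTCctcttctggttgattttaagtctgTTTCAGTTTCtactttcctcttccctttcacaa
Gbp2, chr3:142620564-142620653, plus strand: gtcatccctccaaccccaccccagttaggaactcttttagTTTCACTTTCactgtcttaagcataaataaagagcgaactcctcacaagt
Trim30a, chr7:104465194-104465283, minus strand: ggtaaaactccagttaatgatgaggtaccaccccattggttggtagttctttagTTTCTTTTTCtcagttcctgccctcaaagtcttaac

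The pair of matches in Ifit1 began 104 and 85 bases before the start, and the pair in Ifit3 began 156 and 122 bases before it. Within each of these pairs the first match has the same letters in Ifit1 and Ifit3, and so has the second. Gbp2 held the first of these 10-base matches once, 59 bases before its start. Isg15 held 3 matches that overlap one another. Trim30a has 2 annotated starts, and the second of its windows held the core just after the start. The windows of Irf7 and Ifi35 held no match to these letters. The GAS core, TTCNNNGAA, which reads the same on either strand, occurred in the window of Ifi35 alone among the members, beginning at base 8 after the start, and in 8.30% of all windows. A match is a description of the letters and not evidence of binding. The letters are those of the reference build, and the promoters of the DBA/2J, AKR/J and FVB/NJ genomes were not read.

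**Figure D1:**
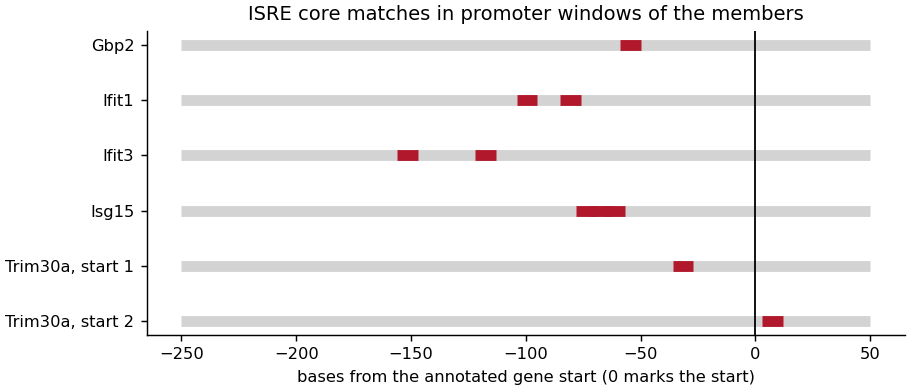
Positions of ISRE core matches (red) in the promoter windows (grey) of the members that hold one, in bases from the annotated gene start. Matches lie between 156 bases before and 12 bases after the start, and those of Isg15 overlap one another.

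The values are the authors' deposited log2 values, 1 per probe set and array. Only probe sets with a mean of at least 2.51, the median level of the array without its controls, were tested. Of the 12 member probe sets 8 passed this filter, covering 6 genes, and the other 4 are given as values without a test. Differences are DBAxFVB F1 minus AKRxFVB F1, fitted with limma over all 22519 probe sets that passed, and ± after a difference is its standard error. The threshold was an adjusted p (Benjamini-Hochberg over all of them) below 0.05. The labels do not say whether arrays of a cross came from separate animals, so the p-values rest on differences between samples that could be technical replicates.

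No interferon response gene passed the test. Irf7 and Ifit3 differed by less than the standard error of the difference. Ifit1, too dim for the test, had a lower mean in DBAxFVB F1 blood with overlapping groups. Both probe sets of Gbp2 and of Trim30a, 1 of 2 of Parp14 and 1 of 3 of Ifi35 lay lower on every DBAxFVB F1 array, and the other Parp14 probe set lay higher. Some of these were below the filter. Among the 8 tested member probe sets 4 lay lower without overlap and 0 higher, against 12.6% and 16.4% of all tested probe sets. The largest difference belonged to 1 probe set of Ifi35, at -1.29 ± 0.32 (limma adjusted p = 0.239). Limma called 0 of the 8 tested member probe sets, against 0% of all tested probe sets. At an unadjusted p below 0.05 there were 3 member probe sets lower and 0 higher in DBAxFVB F1, against 6.79% and 3.59% of all tested probe sets, and 10.4% (2337 probe sets) in either direction. The mean was lower in DBAxFVB F1 for 6 of the 8, against 43.2% of all tested probe sets, and the median over the 8 was -0.29, against 0.044 over all. Gbp2, Trim30a, Parp14 and Ifi35 had been named in an earlier analysis of these arrays for their small p-values, so their number and direction are not independent evidence about the list.

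**Figure D2:**
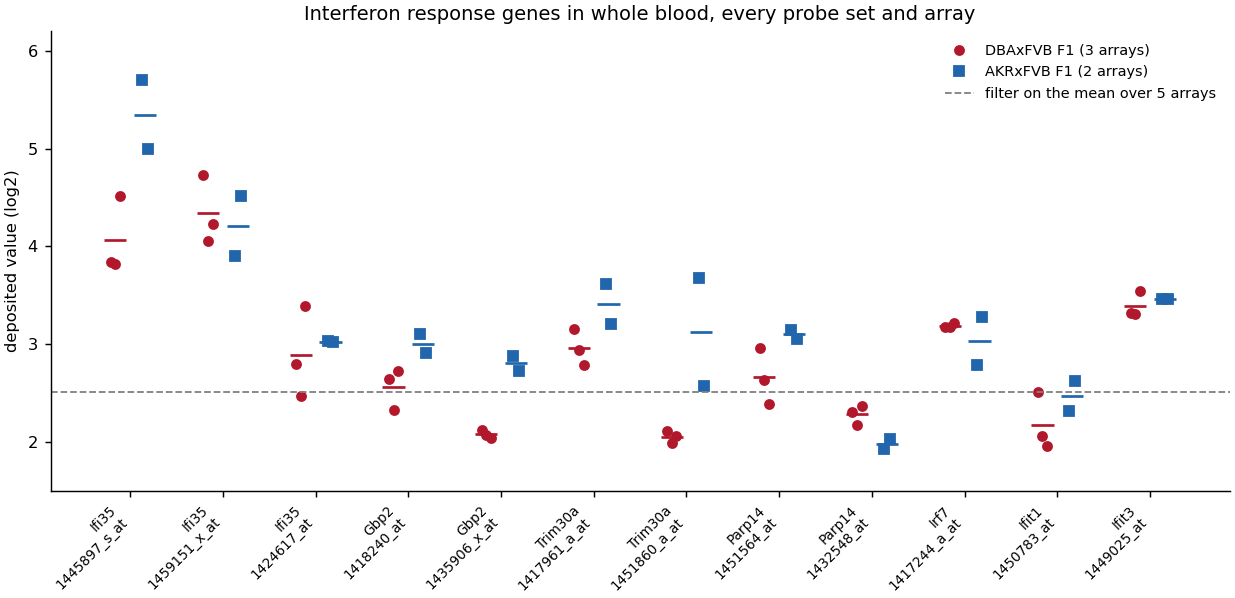
Deposited log2 value of each of the 12 member probe sets on every array. Circles are the 3 DBAxFVB F1 arrays, squares the 2 AKRxFVB F1 arrays, short lines the group means, and the dashed line the filter at 2.51. The groups stand apart in Gbp2, Trim30a, Parp14 and the first Ifi35 probe set, and overlap in the other Ifi35 probe sets, Irf7, Ifit1 and Ifit3. Heights of different probe sets are not comparable.

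Irf7 is the transcription factor that amplifies the production of type I interferon, and its own gene is induced by interferon. Its probe set 1417244_a_at read 3.18, 3.18 and 3.21 on the DBAxFVB F1 arrays, against 2.79 and 3.27 on the AKRxFVB F1 arrays. The DBAxFVB F1 arrays lay close together and between the AKRxFVB F1 arrays, so the groups overlapped. The difference was 0.16 ± 0.18 with a 95% interval of -0.26 to 0.58 (limma adjusted p = 0.781). Without AKRxFVB F1 array 1, its lowest array, the difference was -0.084.

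Ifit1 and Ifit3 belong to a family of RNA-binding antiviral proteins. Ifit1 binds viral RNA that lacks the cap modification of the host and blocks its translation. Its probe set 1450783_at read 2.51, 2.06 and 1.96 in DBAxFVB F1 blood, against 2.31 and 2.62 in AKRxFVB F1 blood. The groups overlapped, and the mean of 2.29 lay below the filter, so it was not tested. The group means were 2.18 ± 0.29 (SD, n = 3) in DBAxFVB F1 and 2.47 ± 0.22 (SD, n = 2) in AKRxFVB F1 blood, a difference of -0.29. Dropping any 1 array put that difference between -0.46 and -0.14.

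Ifit3, which partners other proteins of the family, read 3.32, 3.31 and 3.55 in DBAxFVB F1 blood, against 3.46 and 3.47 in AKRxFVB F1 blood (probe set 1449025_at). The 5 arrays spanned 0.23 log2 units, the narrowest range of the 12 probe sets, and the groups overlapped. The difference was -0.071 ± 0.17 with a 95% interval of -0.46 to 0.31 (limma adjusted p = 0.900). The neighbouring matches to the ISRE core in the reference sequence of Ifit1 and Ifit3 thus stood beside values that overlapped between the crosses in each gene.

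Gbp2 is a guanylate-binding protein, a GTPase that acts on the vacuoles of intracellular pathogens, and is strongly induced by interferon gamma. Its 2 probe sets both separated the crosses. On 1418240_at it read 2.64, 2.32 and 2.73 in DBAxFVB F1 blood, against 3.10 and 2.91 in AKRxFVB F1 blood. Every DBAxFVB F1 array lay below every AKRxFVB F1 array, as in 12.6% of all tested probe sets. The difference was -0.44 ± 0.17 (95% interval -0.84 to -0.05, limma adjusted p = 0.434).

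The second Gbp2 probe set, 1435906_x_at, had a mean of 2.37, below the filter. It read 2.12, 2.07 and 2.04 in DBAxFVB F1 blood, against 2.88 and 2.72 in AKRxFVB F1 blood, and its means differed by -0.73. The DBAxFVB F1 arrays were within 0.1 of one another and apart from both AKRxFVB F1 arrays. The ending x_at marks a probe set with probes that also match other transcripts, so related genes can contribute to it.

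Trim30a encodes a mouse TRIM protein known as a brake on signalling from Toll-like receptors. On 1417961_a_at it read 3.16, 2.94 and 2.79 in DBAxFVB F1 blood, against 3.61 and 3.20 in AKRxFVB F1 blood. The groups did not overlap, but AKRxFVB F1 array 2 was only just above DBAxFVB F1 array 1. The difference was -0.45 ± 0.19 (95% interval -0.89 to -0.00027, limma adjusted p = 0.481). Leaving out AKRxFVB F1 array 1 gave -0.24.

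The second Trim30a probe set, 1451860_a_at, had a mean of 2.48, just under the filter. It read 2.11, 1.99 and 2.06 in DBAxFVB F1 blood, against 3.68 and 2.57 in AKRxFVB F1 blood. The means differed by -1.07, or by -0.52 without AKRxFVB F1 array 1 and -1.62 without AKRxFVB F1 array 2, so much of that gap came from 1 array. The ending a_at marks a probe set for several transcripts of 1 gene. A further probe set is annotated to Trim30d as well as Trim30a and was left out, and these genes are close relatives whose signals may mix.

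Parp14 is an enzyme that attaches single ADP-ribose units to proteins and is itself induced by interferon. Its 2 probe sets pointed in opposite directions. On 1451564_at it read 2.96, 2.64 and 2.38 in DBAxFVB F1 blood, against 3.14 and 3.06 in AKRxFVB F1 blood. The groups did not overlap, and the difference was -0.44 ± 0.19 (95% interval -0.88 to 0.0044, limma adjusted p = 0.486).

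The other Parp14 probe set, 1432548_at, read 2.30, 2.17 and 2.37 in DBAxFVB F1 blood, against 1.93 and 2.03 in AKRxFVB F1 blood. Here every DBAxFVB F1 array lay above every AKRxFVB F1 array, and the means differed by 0.30. Such an order held in 16.4% of the tested probe sets, which are brighter and do not include this probe set. Its mean of 2.16 lay below the filter, so it was not tested.

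Ifi35 is a leucine zipper protein that, in human cells, forms a complex with the related protein Nmi. It was the member with most probe sets, and they disagreed. On 1445897_s_at it read 3.84, 3.82 and 4.52 in DBAxFVB F1 blood, against 5.70 and 4.99 in AKRxFVB F1 blood. DBAxFVB F1 array 3 was the highest of its cross and AKRxFVB F1 array 1 the highest of all, and the groups did not overlap. The group means were 4.06 ± 0.40 (SD, n = 3) in DBAxFVB F1 and 5.35 ± 0.50 (SD, n = 2) in AKRxFVB F1, which on a log2 scale is a ratio of 0.410. The 95% interval of the difference ran from -2.03 to -0.54.

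The other Ifi35 probe sets did not separate the crosses. On 1459151_x_at the gene read 4.73, 4.06 and 4.23 in DBAxFVB F1 blood, against 3.90 and 4.51 in AKRxFVB F1 blood. The groups overlapped, and the difference was 0.13 ± 0.29 (95% interval -0.54 to 0.79, limma adjusted p = 0.895). It changed sign without DBAxFVB F1 array 1, to -0.065, and without AKRxFVB F1 array 1, to -0.18, and was 0.43 without AKRxFVB F1 array 2. On 1424617_at it read 2.80, 2.47 and 3.39 in DBAxFVB F1 blood, against 3.03 and 3.02 in AKRxFVB F1 blood. The AKRxFVB F1 values lay inside the range of the DBAxFVB F1 values, and the difference was -0.14 ± 0.26 (95% interval -0.73 to 0.46, limma adjusted p = 0.870). Dropping DBAxFVB F1 array 2 turned it to 0.071, and dropping DBAxFVB F1 array 3 gave -0.39.

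The ending s_at marks a probe set that can detect transcripts of more than 1 gene. The platform annotation gives a sequence accession for 1424617_at, and its accession field is empty for 1445897_s_at and 1459151_x_at. The separation of the crosses at Ifi35 therefore rested on 1 of its 3 probe sets, and the probe set with an accession did not show it. The difference between the probe sets was not tested.

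**Figure D3:**
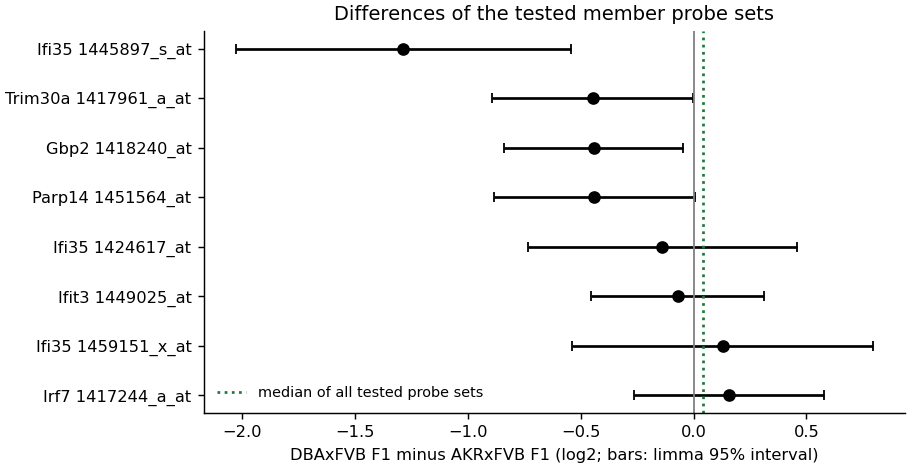
Difference in log2 value, DBAxFVB F1 minus AKRxFVB F1, for the 8 tested member probe sets, with limma's 95% interval. The dotted line is the median of all tested probe sets, 0.044. The interval of Ifi35 on 1445897_s_at lies farthest from 0, and the intervals of the other Ifi35 probe sets include 0.

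Blood is a mixture, and cell type markers differed in the array on which they peaked. The mean levels of B cell and of plasmacytoid dendritic cell markers were highest on AKRxFVB F1 array 1, as was Ifi35 on 1445897_s_at. T cell and platelet markers were highest on AKRxFVB F1 array 2, and monocyte and neutrophil markers on DBAxFVB F1 array 3. Fewer cells of a type and less RNA per cell cannot be told apart in such samples. Of 9 B cell markers with a probe set 8 had a lower mean in DBAxFVB F1 blood. Their mean log2 level was 3.82, 3.71 and 4.30 on the DBAxFVB F1 arrays, against 5.20 and 4.30 on the AKRxFVB F1 arrays, so the groups overlapped. None of the 9 was at 0, and the lowest mean was 2.84 for Cr2, which encodes a complement receptor. Ms4a1, which encodes the B cell antigen CD20, read 5.29, 5.16 and 6.19 in DBAxFVB F1 blood, against 8.03 and 6.97 in AKRxFVB F1 blood. Like Ifi35 on 1445897_s_at, it was highest on AKRxFVB F1 array 1 and, within DBAxFVB F1, on array 3.

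Plasmacytoid dendritic cells, the main producers of type I interferon in blood, gave overlapping groups. Their 8 markers had a mean log2 level of 3.69, 3.67 and 4.11 in DBAxFVB F1 blood, against 4.20 and 3.82 in AKRxFVB F1 blood. Only 4 of the 8 had a lower mean in DBAxFVB F1, and the median difference was 0.024. The brightest, Ly6d, read 4.96, 4.98 and 6.48 in DBAxFVB F1 blood, against 7.86 and 6.17 in AKRxFVB F1 blood. How far Ly6d alone set the peak of the mean on AKRxFVB F1 array 1 was not tested. Monocyte markers ranged from 4.50 to 5.16 in DBAxFVB F1 and from 4.78 to 5.13 in AKRxFVB F1 blood and so overlapped. T cell markers ranged from 3.95 to 4.33 in DBAxFVB F1 and from 4.46 to 4.65 in AKRxFVB F1 blood without overlap, and 8 of 10 had a lower mean in DBAxFVB F1. The part of any cell type in the values of Ifi35, Gbp2, Trim30a and Parp14 was not tested.

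**Figure D4:**
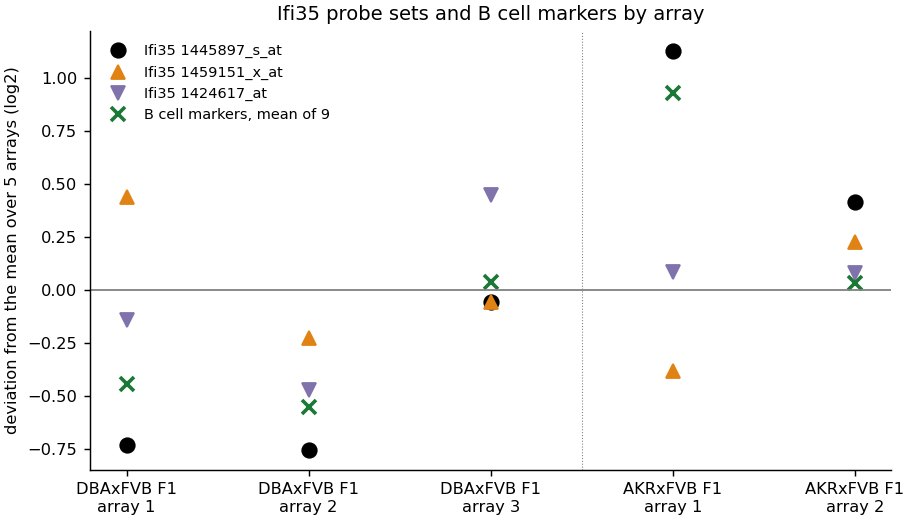
Deviation of each array from the mean over the 5 arrays, in log2 units, for the 3 Ifi35 probe sets and for the mean of 9 B cell markers. Probe set 1445897_s_at and the B cell markers are highest on AKRxFVB F1 array 1 and low on DBAxFVB F1 arrays 1 and 2, while the other Ifi35 probe sets do not follow that order.

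The arrays themselves differed in ways that touch these values. DBAxFVB F1 array 3 had a median of 7.99 over the 18 hybridisation control probe sets, against 10.01 to 10.12 on the other arrays, and 298 probe sets above a log2 value of 8, against 471 to 579. The signal of Actb at the 3-prime end exceeded that at the 5-prime end by 0.82, 0.68 and 1.32 on the DBAxFVB F1 arrays, against 1.22 and 1.03 on the AKRxFVB F1 arrays, where a larger gap is a sign of shorter RNA or cDNA. This gap of Actb was thus large on DBAxFVB F1 array 3 and on both AKRxFVB F1 arrays, among them array 1 with the Ifi35 peak. For Gapdh the gap was 0.62, 0.58 and 1.33 on the DBAxFVB F1 arrays, against 1.04 and 0.73 on the AKRxFVB F1 arrays. There AKRxFVB F1 array 2 lay nearer to DBAxFVB F1 arrays 1 and 2. The part of these gaps in the values was not tested. Leaving out DBAxFVB F1 array 3 gave a difference of -1.51 for Ifi35 on 1445897_s_at, leaving out AKRxFVB F1 array 1 gave -0.93, and leaving out AKRxFVB F1 array 2 gave -1.64. Bright probe sets lay lower in DBAxFVB F1 in general, with a median of -0.44 for means from 6 to 8, against -0.0086 for means from 4 to 6, where the Ifi35 probe set lies. Yet of the 3905 probe sets from 4 to 6, 415 were lower and 71 higher at an unadjusted limma p below 0.05. Among all 22519 these counts were 1529 and 808. Large lower differences were thus more common at the level of this Ifi35 probe set than over all tested probe sets. Blood markers were present, with Alas2, an enzyme of heme synthesis in red cell precursors, at 13.5 to 13.6 on all arrays. All 9 platelet markers had a lower mean in DBAxFVB F1 blood, with a median difference of -0.54. Their mean log2 level was 8.24, 8.38 and 6.63 in DBAxFVB F1 blood, against 7.67 and 8.82 in AKRxFVB F1 blood, and the groups overlapped, with DBAxFVB F1 array 3 lowest. Red cell markers, 4 of 7 with a lower mean, were at 7.27, 7.78 and 6.66 in DBAxFVB F1 blood, against 7.35 and 7.57 in AKRxFVB F1 blood. Heart muscle markers, which a cardiac puncture can bring, had a mean log2 level of 2.76 to 3.17 in DBAxFVB F1, against 2.51 to 2.73 in AKRxFVB F1 blood. The groups did not overlap but nearly met. These levels are near the filter, which only 6 of the 10 markers passed, and the lowest, Myl7, had a mean of 2.11. The part of these cells in the members' values was not tested.

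Genes with a pattern most like Ifi35 on 1445897_s_at were Npm1, Zfp36l1 and Tgfbr2. Likeness was the root mean square difference between values centred on their own mean over the 5 arrays, among tested probe sets. It was 0.079 for Npm1, a nucleolar protein, 0.11 for Zfp36l1, an RNA-binding protein that promotes mRNA decay, and 0.11 for Tgfbr2, a receptor for transforming growth factor beta. Npm1 read 4.20, 4.03 and 4.78 in DBAxFVB F1 blood, against 6.13 and 5.25 in AKRxFVB F1 blood. It shared with Ifi35 the peak on AKRxFVB F1 array 1. The mean of Irf7, Ifit1 and Ifit3, of which Ifit1 lies below the filter, stayed between -0.095 and 0.17 from its mean over the arrays. Single genes moved more than that mean, with Irf7 at -0.34 on AKRxFVB F1 array 1 and Ifit1 between -0.33 on DBAxFVB F1 array 3 and 0.33 on AKRxFVB F1 array 2. The mean of the 3 was most like Ccn6, Fam167b and Fam189a2, with differences of 0.022, 0.023 and 0.024.

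The remaining genes of the pathway came from 9 lists, and they did not pass either. Of 143 listed genes 117 had a probe set with 1 symbol and 89 had one that passed the filter. Limma called 0 of the 89. At an unadjusted p below 0.05 there were 9 lower and 1 higher in DBAxFVB F1, against the 6.79% and 3.59% given above. Their median was -0.036, against 0.044 over all tested probe sets, with 48 lower and 41 higher. The groups stood apart with DBAxFVB F1 lower in 14 of the 89 and higher in 7, against 12.6% and 16.4% of all tested probe sets. Most genes named below were picked for the smallest p in their list, so their separation does not describe the list.

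The tested interferon ligand genes had higher means in DBAxFVB F1 blood, 5 of 5 as deposited and 4 of 5 after quantile, median or cyclic loess normalization. Of all 22519 tested probe sets, 12790 also had a higher mean in DBAxFVB F1 blood as deposited. The ligand genes had differences from 0.039 to 0.38 with a median of 0.14, and in none of them did the groups stand apart. Ifna1, Ifna4 and Ifna5 differed by less than the standard error of the difference. Ifnb1, the interferon beta gene, read 3.18, 2.78 and 3.13 in DBAxFVB F1 blood, against 2.54 and 2.96 in AKRxFVB F1 blood. The groups overlapped, with a difference of 0.28 ± 0.20 (limma adjusted p = 0.654). Ifnab and Ifna5, alpha interferon genes measured by x_at probe sets, differed by 0.38 ± 0.29 and 0.13 ± 0.17.

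Receptor chains and signal carriers gave a mixed picture. The 14 tested genes had 7 lower and 7 higher with a median of -0.024. Ifnar1 differed by 0.044 ± 0.17, Ifnar2 by 0.091 ± 0.29 and Stat2 by 0.049 ± 0.15 on their brightest probe sets, and the groups overlapped in each. Irf9 had a mean of 2.22 and Usp18, which removes Isg15 from proteins and restrains the receptor, one of 2.18, both below the filter and overlapping.

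Jak1 and Jak2 had lower means in DBAxFVB F1 blood, while Tyk2 differed by 0.10. Jak2, which serves the interferon gamma receptor, read 4.21, 4.21 and 3.81 in DBAxFVB F1 blood, against 4.79 and 5.02 in AKRxFVB F1 blood. The groups stood apart, with a difference of -0.83 ± 0.23 (limma adjusted p = 0.267). Ptpn2, a phosphatase that turns off Jak1, differed by -1.04 ± 0.30 and Jak1 by -0.91 ± 0.37 (limma adjusted p = 0.286 and 0.455). Jak1 was at -0.57 after quantile normalization.

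Among the regulatory factors other than Irf7, Irf1 read 5.34, 5.08 and 5.83 in DBAxFVB F1 blood, against 5.05 and 4.82 in AKRxFVB F1 blood. Irf1 is induced by interferon gamma and drives genes such as Gbp2. Its lowest DBAxFVB F1 array was barely above its highest AKRxFVB F1 array, and the difference was 0.48 ± 0.29 (limma adjusted p = 0.615). That of Gbp2 had the opposite sign, but neither gene passed, and a link between them was not tested. Irf3 differed by 0.21 ± 0.21 and Irf8 by -0.21 ± 0.17.

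Genes that sense nucleic acids centred on 0, with a median of -0.0049 over 15 tested genes. Ticam1, the adaptor of Toll-like receptor 3, was the 1 pathway gene on the higher side at an unadjusted p below 0.05. It read 2.87, 3.16 and 3.51 in DBAxFVB F1 blood, against 2.42 and 2.53 in AKRxFVB F1 blood. The groups stood apart, with a difference of 0.71 ± 0.20 (limma adjusted p = 0.291). Trim25, a ubiquitin ligase of the RIG-I pathway, differed by -0.61 ± 0.19 and the kinase gene Tbk1 by -0.52 ± 0.30.

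Antiviral effectors had 16 lower and 15 higher of 31 tested genes and a median of -0.024. Nmi, the partner of Ifi35 in human cells, had the smallest p among the pathway genes. It read 2.97, 2.998 and 2.66 in DBAxFVB F1 blood, against 4.10 and 3.49 in AKRxFVB F1 blood. The groups stood apart, with a difference of -0.92 ± 0.22 (limma adjusted p = 0.227). Ifitm2, a membrane protein that hinders virus entry, differed by -0.94 ± 0.35, and Ifi30, a thiol reductase of antigen processing, by -0.92 ± 0.38, or by -0.50 after quantile normalization.

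The genes around Isg15, Gbp2, Trim30a and Parp14 were few. Isg15 is a ubiquitin-like protein, and the 3 tested genes of its conjugation had overlapping groups: Uba7, its activating enzyme, differed by -0.21 ± 0.31, Ube2l6, its conjugating enzyme, by -0.20 ± 0.56 and the ligase gene Herc6 by -0.060 ± 0.17. Ube2l6 read 9.49, 9.70 and 7.98 in DBAxFVB F1 blood, against 9.07 and 9.43 in AKRxFVB F1 blood, so only DBAxFVB F1 array 3 was lower. After quantile normalization Uba7 was at 0.12 and Ube2l6 at 0.37, the opposite sign, and Ube2l6 was at 0.27 after cyclic loess normalization. The 4 tested GTPase genes were all lower, as deposited and under each normalization, against 43.2% of all tested probe sets as deposited. Their median was -0.17, with Igtp at -0.52 ± 0.51, Irgm2 at -0.23 ± 0.19 and Gbp7 at -0.11 ± 0.21. Igtp read 6.62, 6.70 and 5.05 in DBAxFVB F1 blood, against 6.49 and 6.79 in AKRxFVB F1 blood. Only DBAxFVB F1 array 3 lay below the AKRxFVB F1 arrays, while arrays 1 and 2 lay between them. Igtp was at -0.22 after quantile and -0.30 after cyclic loess normalization, and Gbp7 at -0.047 after quantile normalization. The groups overlapped in Igtp, Irgm2 and Gbp7, unlike those of Gbp2.

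The 3 tested TRIM genes, Trim14, Trim21 and Trim26, differed by -0.13 ± 0.19, 0.069 ± 0.18 and -0.051 ± 0.41 and overlapped. Trim26 was at 0.0098 after quantile normalization. Of 9 tested PARP genes 6 were lower (7 after cyclic loess normalization), with a median of -0.098. Parp1, which acts in DNA repair, differed by -0.66 ± 0.19 and Zc3hav1, an antiviral protein that binds viral RNA, by -0.62 ± 0.21, and in each the groups stood apart (limma adjusted p = 0.298 and 0.387). Parp9, which pairs with the ligase Dtx3l, differed by -0.21 ± 0.16 and overlapped.

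Among 73 tested pathway genes with a promoter window, 24 held the ISRE core, against 3.99% of all genes with a window. Their median difference was 0.044, against -0.041 for the 49 without it.

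**Figure D5:**
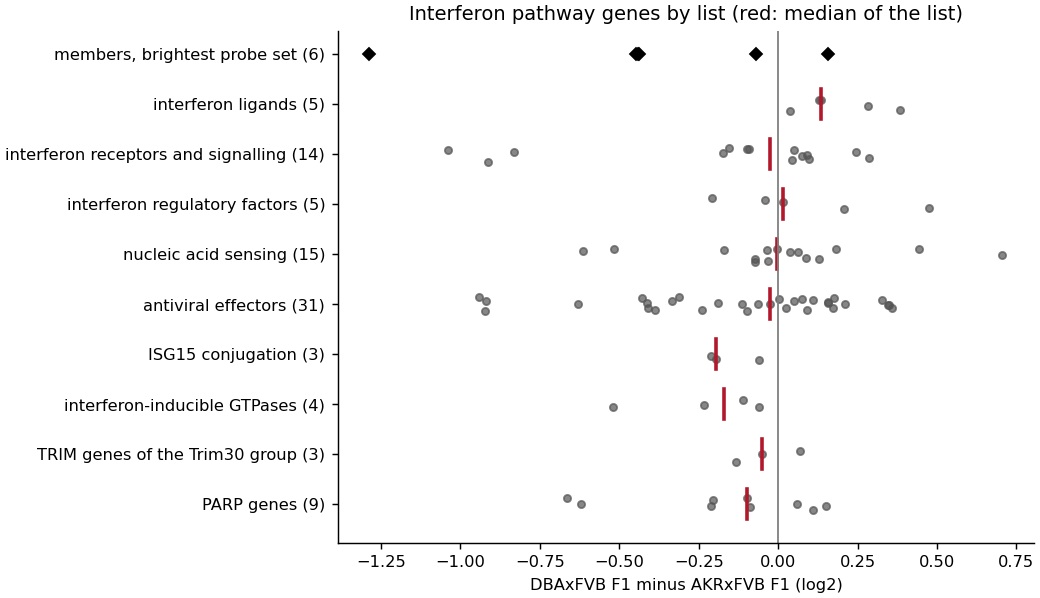
Difference in log2 value, DBAxFVB F1 minus AKRxFVB F1, for each tested gene of the 9 pathway lists (grey points, number in brackets, red line the list median) and for the 6 tested members by their brightest probe set (black diamonds). List medians lie between -0.20 and 0.14, while Ifi35 lies at -1.29.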

How the data were processed

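Total RNA of whole blood was amplified in 2 cycles and hybridised to Affymetrix arrays, per the labels' protocols. The authors deposited 1 log2 value per probe set and array. The base is inferred from their range and is not stated. MAS5 and RMA are named in the submitters' processing notes, with no statement of which gave these values, so background correction and normalization are unknown, and low values have no detection limit. Groups came from the source labels. The 64 control probe sets were left out. The platform table of gene names gave 34958 probe sets 1 symbol, 932 several and 9211 none. Limma 3.58.1 (lmFit and trended eBayes, run in R 4.3.3) was applied to them with cross as the only term and 3 residual degrees of freedom, after the filter at 2.51. The limma step was tested on simulated data. The differences put into them were larger than any of the members', so that test does not measure the power to detect member differences. For 2 against 3 arrays an exact permutation test cannot reach the threshold and was not used. The number of arrays limits the precision.

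The members and gene lists were chosen with earlier results of these data known. Each gene is given by its brightest probe set, each pathway list by up to 3 genes with the smallest p together with Stat2, Irf9, Ifnar1, Ifnar2 and Usp18. One further gene of the rule is not reported here. The pattern planned as a mean of 4 members used 3, since Isg15 has no value. Alternatives were quantile, median and cyclic loess normalization, another filter (none, or the 75th percentile), another variance model (untrended, or robust), a replicate block, and each array left out. Marker lists of natural killer cells, neutrophils and endothelium were also summarised.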

Additional observations from a re-analysis of the deposited data

How the results depend on the processing

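Limma called 0 member probe sets, 0 pathway genes and 0 probe sets in all under each of the 13 alternatives. No normalization turned the direction of a tested member, and each moved the median of all probe sets by less than 0.1. The lower share among probe sets at an unadjusted p below 0.05 was 65.4% as deposited, and centring the arrays on their medians made it 77.0% and cyclic loess 78.9%. The median over tested member probe sets was -0.29, and it was -0.071 with the filter at the 75th percentile, where only 3 probe sets remained. With 1 array left out it ranged from -0.48, without DBAxFVB F1 array 1, where 9 probe sets passed the filter, to -0.21, without AKRxFVB F1 array 1. A lone AKRxFVB F1 array was assumed to vary like the others. Irf7 changed sign without AKRxFVB F1 array 1, to -0.084, and was 0.40 without AKRxFVB F1 array 2. Ifi35 on 1459151_x_at and on 1424617_at also changed sign with 1 array left out, as given above. Cyclic loess normalization put Irf7 at 0.091 and Ifit3 at -0.14, and median centring put Ifi35 on 1459151_x_at at 0.086. Over all alternatives Ifi35 ranged from -1.64 to -0.93 (limma adjusted p from 0.0787 to 0.893). Without a filter the 4 dim member probe sets were fitted as well, and Gbp2 on 1435906_x_at had an adjusted p of 0.159 by limma. Array numbers are shared by the crosses, and the deviations of same-numbered arrays from their cross mean correlated at -0.26 and 0.17. With 2 AKRxFVB F1 arrays their deviations mirror each other, so this check cannot decide whether the numbers mark pairs. With the replicate block the median over members was -0.33 and the lowest adjusted p among them 0.0787.

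Quantile normalization turned the list medians of the Isg15 conjugation genes (0.12), antiviral effectors (0.040), nucleic acid sensors (0.039), receptors and signalling genes (0.0035) and TRIM genes (0.0098) to the higher side. The median of the regulatory factors, 0.016 as deposited, was between -0.048 and -0.027 under each normalization.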

Other observations

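Neutrophil markers, whose cells also respond to interferon, had a mean log2 level of 4.34, 4.29 and 4.74 in DBAxFVB F1 blood, against 4.61 and 4.20 in AKRxFVB F1 blood, and the groups overlapped. Natural killer cell markers had a mean level of 2.70, 2.61 and 2.46 in DBAxFVB F1 blood, against 2.46 and 2.998 in AKRxFVB F1 blood, also overlapping. Endothelial markers lay between 3.10 and 3.20 in DBAxFVB F1 and between 2.998 and 3.15 in AKRxFVB F1 blood.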
